A study of Mus musculus with 12 samples.

Results

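The comparison set islets of non-obese diabetic (NOD) mice that carry the insHEL transgene against islets of C57BL/10 (B10) mice that carry the same transgene. Its members are 6 of the 12 samples of the series: 3 libraries labelled NOD_insHEL and 3 labelled B10_insHEL, each chosen by its strain and genotype labels and each from 1 mouse. Both groups were male, 11 weeks old and normoglycemic, and both carried the MHC k haplotype and a Rag-/- genotype, so that mature T and B cells should be missing. The labels do not say which Rag gene was disrupted, and they name a 129S7(B6) origin for the allele. The NOD_insHEL mice were on NOD/LtJ and the B10_insHEL mice on C57BL/10SnSg, and insHEL, written ILK3mHEL in the strain names, expresses hen egg lysozyme from an insulin promoter. The transgene's own transcript is not analysed here. Pancreata were digested with collagenase while inhibitors of transcription were present, and 44 to 116 islets were picked per B10_insHEL library and 77 to 114 per NOD_insHEL library. The other 6 samples, NOD and B10 mice without insHEL, served to estimate the spread and are cited only for a second reading of the same strain difference.

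Pancreatic islets are small endocrine organs in which insulin-secreting beta cells lie beside glucagon-secreting alpha cells, somatostatin-secreting delta cells and a few ghrelin or pancreatic polypeptide cells. Beta cells pass very large amounts of proinsulin through the endoplasmic reticulum (ER), where chaperones fold it, and a transgene under an insulin promoter adds another protein to that flow. The unfolded protein response (UPR) reads misfolded protein through the sensors Ire1 (gene Ern1), Perk (Eif2ak3) and Atf6. Perk also feeds the integrated stress response, in which the transcription factor Atf4 turns on genes for amino acid synthesis, amino acid transport and tRNA charging. NOD mice develop autoimmune diabetes, and Rag deficiency allows their islets to be examined without infiltrating lymphocytes.

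The 6 libraries differed in depth and in the exocrine tissue that came with the islets. Raw counts assigned to genes totalled 9904849, 11479112 and 10493508 in B10_insHEL replicates 1, 2 and 3, and 10841939, 7784092 and 2212062 in NOD_insHEL replicates 1, 2 and 3. A gene with 0 counts could thus have been present at up to 0.261 to 0.396 CPM (counts relative to the TMM-scaled library size, the unit of every level below) in the 5 deeper libraries and at up to 1.41 CPM in NOD_insHEL replicate 3. The 2 insulin genes together took 16.3% to 21.6% of the counts in B10_insHEL and 22.4% to 25.6% in NOD_insHEL. Markers of acinar cells, the enzyme-making exocrine cells around islets, summed to 204, 2940 and 211 CPM in the B10_insHEL libraries and to 238, 160 and 171 CPM in the NOD_insHEL libraries. B10_insHEL replicate 2 therefore stands apart by its acinar RNA and NOD_insHEL replicate 3 by its shallow depth, and counts are given below with and without them, together called the doubted libraries. The targeted Rag genes did not check the labels: Rag2 had no counts in any library, and Rag1 lay between 5.26 and 8.57 CPM in all 6, with the deleted part unknown.

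Strain differences were widespread. Of 15352 genes tested, 1850 (12.1%) differed between NOD_insHEL and B10_insHEL at an adjusted p under 0.05 by the quasi-likelihood test of edgeR, 852 of them (5.55% of those tested) higher in NOD_insHEL and 998 (6.5%) lower. The median size of the called differences was 0.88 on the log2 scale, 798 of them were at least 2-fold (423 higher and 375 lower), and 321 were at least 4-fold. The median over all genes tested was -0.006. Errors printed after a log2 difference are standard errors (SE), and negative values mean lower in NOD_insHEL. For 4150 genes (27.0% of those tested) the 3 NOD_insHEL libraries did not overlap the 3 B10_insHEL libraries, and 1759 of the called genes were among them. The number of called genes was 1574 without B10_insHEL replicate 2, 1437 without NOD_insHEL replicate 3 and 1343 without both. In all, 916 of the 1850 calls (49.5%) held whichever of the 6 libraries was left out, and the genes described below held in this sense unless the libraries on which a call rested are named.

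**Figure D1:**
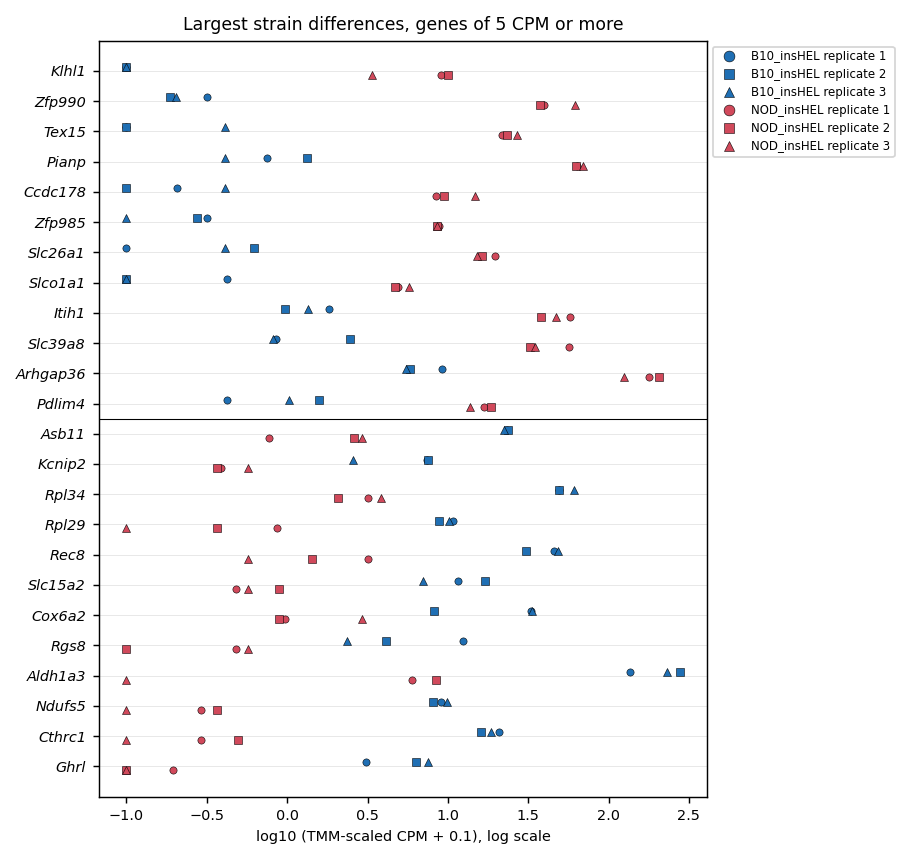
Level in each library of the 24 protein-coding genes with the largest strain differences among called genes of at least 5 CPM in the higher group, with no overlap and a call kept in each leave-out, as log10 of CPM plus 0.1. Blue symbols are the 3 B10_insHEL libraries and red symbols the 3 NOD_insHEL libraries, with the marker shape giving the replicate. The 12 genes above the line are higher in every NOD_insHEL library and the 12 below it lower in every one.

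Among called genes of at least 5 CPM in the higher group, several of those with the largest differences were near silent in B10_insHEL. Klhl1, a kelch-like protein known from neurons (chromosome 14, 96102736 to 96519102), had 0 counts in all 3 B10_insHEL libraries and lay at 9.01, 9.89 and 3.29 CPM in NOD_insHEL. Set against 3 counts summed over the B10_insHEL group, it was at least 88.8-fold higher (log2 difference 9.51 ± 1.19 SE, adjusted p = 0.000223). Tex15, a germ-line gene of meiotic recombination (chromosome 8, 33516738 to 33585582), had 3 counts in B10_insHEL in all and 21.5, 23.2 and 26.8 CPM in the NOD_insHEL libraries. The ratio of its pooled levels was 231, with an exact counting interval from 78.4 to 1120 (log2 difference 7.74 ± 0.40 SE, adjusted p = 2.59e-11). Slco1a1, an organic anion transporter, likewise had 3 counts in B10_insHEL and 4.79, 4.62 and 5.63 CPM in NOD_insHEL, a ratio of 49.0 (16.3 to 242).

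A second set was readily measured in NOD_insHEL and low in B10_insHEL. Pianp, a membrane protein of the nervous system, was present at 0.645, 1.22 and 0.309 CPM in B10_insHEL and 63.8, 62.5 and 69 CPM in NOD_insHEL (log2 difference 6.41 ± 0.23 SE, adjusted p = 1.11e-13). Zfp990 and Zfp985, zinc finger genes, lay at 39.5, 37.5 and 61.5 CPM and at 8.72, 8.44 and 8.45 CPM in NOD_insHEL. Neither exceeded 0.215 CPM in any B10_insHEL library (log2 differences 8.29 and 5.92). Both belong to a family of near-identical genes on chromosome 4 in which reads can be split between copies, so these values are uncertain. Itih1, a serum inhibitor heavy chain that binds hyaluronan, stood at 1.72, 0.87 and 1.24 CPM in B10_insHEL and 57.3, 37.6 and 47 CPM in NOD_insHEL (log2 difference 5.23 ± 0.25 SE, adjusted p = 1.08e-11). Slc39a8, an importer of zinc and manganese, was at 0.752, 2.35 and 0.722 CPM in B10_insHEL and 56.8, 32.3 and 34.7 CPM in NOD_insHEL (log2 difference 4.97 ± 0.39 SE, adjusted p = 1e-06). Slc26a1, a sulfate transporter, was at 0, 0.522 and 0.309 CPM in B10_insHEL and 19.6, 16.1 and 15 CPM in NOD_insHEL (log2 difference 5.82). Arhgap36, a protein that restrains protein kinase A, reached 179, 206 and 124 CPM in NOD_insHEL against 9.03, 5.74 and 5.36 CPM in B10_insHEL (log2 difference 4.68). Pdlim4, a PDZ and LIM domain protein of the actin cytoskeleton, and Ccdc178 completed the 12, with log2 differences of 4.12 and 6.16.

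Among the genes lowest in NOD_insHEL, 2 belonged to islet endocrine biology. Ghrl, which encodes the hormone ghrelin (chromosome 6, 113716119 to 113719880), was present at 3.01, 6.26 and 7.43 CPM in B10_insHEL and had a single count among all NOD_insHEL libraries. The ratio of pooled levels was 114, with a wide counting interval from 20.1 to 4510 (log2 difference -6.54 ± 0.95 SE, adjusted p = 0.000151). In bulk islets fewer ghrelin cells and less RNA per cell cannot be told apart. Aldh1a3, a retinaldehyde dehydrogenase that marks dedifferentiated beta cells (chromosome 7, 66390890 to 66427517), was at 136, 276 and 232 CPM in B10_insHEL and 5.85, 8.31 and 0 CPM in NOD_insHEL (log2 difference -5.18 ± 0.49 SE, adjusted p = 0.000163). The value of 0 in NOD_insHEL replicate 3 allows up to 1.41 CPM, still far under the lowest B10_insHEL library. The same gene was lower in NOD than in B10 islets without insHEL, at -4.10 log2 units (adjusted p = 0.000713).

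The other 10 of these genes had varied roles. Cthrc1, a secreted matrix protein, was at 20.6, 16 and 18.5 CPM in B10_insHEL and 0.192, 0.396 and 0 CPM in NOD_insHEL (log2 difference -6.15 ± 0.43 SE, adjusted p = 2.26e-09). Rec8, a meiotic cohesin, was at 45.6, 30.6 and 48.6 CPM in B10_insHEL and 3.07, 1.32 and 0.47 CPM in NOD_insHEL (log2 difference -4.32). Slc15a2, a peptide transporter, was at 11.5, 16.8 and 6.91 CPM in B10_insHEL and 0.383, 0.791 and 0.47 CPM in NOD_insHEL (log2 difference -4.40). Cox6a2, a muscle-type subunit of respiratory complex IV, was at 32.8, 8.09 and 33.3 CPM in B10_insHEL and 0.863, 0.791 and 2.82 CPM in NOD_insHEL (log2 difference -4.51 ± 0.76 SE, adjusted p = 0.00475), with B10_insHEL replicate 2 well under its other two replicates. Rgs8, a brake on G-protein signalling, Kcnip2, a potassium channel partner, and Asb11, a ubiquitin ligase adaptor, differed by -4.58, -4.21 and -3.79 log2 units. Ndufs5, a subunit of complex I, and the ribosomal protein genes Rpl29 and Rpl34 differed by -5.42, -4.31 and -4.27 log2 units. These 3 values are uncertain, since near-identical copies elsewhere in the genome can share their reads.

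Genes of the integrated stress response were called often, and mostly as lower in NOD_insHEL. Of its 30 measured genes, 10 were lower in NOD_insHEL and 2 higher (40.0% called, against 12.1% of all genes), and the median over the list was -0.59. The number lower was 15, 9 and 8 without B10_insHEL replicate 1, 2 or 3 and 9, 9 and 9 without NOD_insHEL replicate 1, 2 or 3, 7 without both doubted libraries, and 8 of the 10 held in each leave-out. Nupr1, a small stress-induced chromatin protein, was at 55.9, 109 and 121 CPM in B10_insHEL and 6.71, 11.9 and 2.82 CPM in NOD_insHEL (log2 difference -3.56 ± 0.37 SE, adjusted p = 0.000178). Asns, asparagine synthetase, was at 141, 200 and 235 CPM in B10_insHEL and 84.8, 97.6 and 68.1 CPM in NOD_insHEL (log2 difference -1.18 ± 0.18 SE, adjusted p = 0.000417). Both were singled out after their values were seen, and the other examples come from the rule for named genes. Phgdh, which catalyses the first step of serine synthesis (chromosome 3, 98313170 to 98339990), was at 5.69, 6.7 and 11 CPM in B10_insHEL and 0.575, 0.791 and 0.47 CPM in NOD_insHEL (log2 difference -3.57 ± 0.40 SE, adjusted p = 2.46e-06). Psat1, its follow-on aminotransferase, was at 17.5, 31 and 39.3 CPM in B10_insHEL and 6.9, 7.39 and 3.76 CPM in NOD_insHEL (log2 difference -2.16 ± 0.26 SE, adjusted p = 1.09e-05). Eif4ebp1, a repressor of cap-dependent translation, was at 8.49, 17.6 and 21.3 CPM in B10_insHEL and 3.45, 4.49 and 1.88 CPM in NOD_insHEL (log2 difference -2.13 ± 0.31 SE, adjusted p = 0.000105). In each of these 5 genes every NOD_insHEL library lay below every B10_insHEL library, and B10_insHEL replicate 1 was the lowest of its group. Atf4 itself did not pass the test, at 297, 347 and 491 CPM in B10_insHEL and 275, 326 and 288 CPM in NOD_insHEL (log2 difference -0.35 ± 0.16 SE, adjusted p = 0.175), nor did Ddit3, the death-linked factor Chop (log2 difference -0.27 ± 0.34 SE, adjusted p = 0.68).

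Members of the list that ran the other way were Stc2, a secreted glycoprotein, and Cbs, the enzyme that commits homocysteine to cysteine. Stc2 was higher by 1.78 ± 0.42 log2 units (adjusted p = 0.00663), with levels of only 3.45, 4.49 and 1.88 CPM in NOD_insHEL. Its raw counts there, 36, 34 and 4, happen to equal those of Eif4ebp1, while the B10_insHEL counts of both genes differ. Cbs was at 59.6, 25.3 and 61.5 CPM in B10_insHEL and 117, 97 and 97.7 CPM in NOD_insHEL (log2 difference 1.10 ± 0.26 SE, adjusted p = 0.0197), and its call was lost without NOD_insHEL replicate 1 (adjusted p = 0.074). In the separate mice without insHEL the strain difference was -3.72 log2 units (adjusted p = 5.03e-05) for Nupr1, -1.55 log2 units (adjusted p = 1.97e-05) for Asns and -3.88 log2 units (adjusted p = 2.79e-07) for Phgdh.

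Serine and one-carbon enzymes and cytosolic tRNA synthetases work beside this response, and Phgdh and Psat1 count in both lists. Of 20 serine and one-carbon enzymes 6 were lower and 2 higher (40.0% called, against 12.1% of all genes), with a median of -0.44. The number lower was 7, 4 and 6 without B10_insHEL replicate 1, 2 or 3 and 3, 5 and 4 without NOD_insHEL replicate 1, 2 or 3, and the number higher lay between 1 (without NOD_insHEL replicate 2) and 3 (without B10_insHEL replicate 1). Ahcy, which breaks down S-adenosylhomocysteine, was lower, at 3.87, 5.83 and 3.92 CPM in B10_insHEL and 0.671, 0.528 and 0.47 CPM in NOD_insHEL (log2 difference -2.93 ± 0.40 SE, adjusted p = 2.75e-05). Shmt1, the cytosolic serine hydroxymethyltransferase, was higher by 2.29 ± 0.57 log2 units (adjusted p = 0.00976) at levels under 3 CPM. The Shmt1 call was lost without NOD_insHEL replicate 2 (adjusted p = 0.0602). Of 20 cytosolic tRNA synthetases 8 were lower, against 6.5% of all genes, and none higher, with a median of -0.36. That count was 10, 4 and 3 without B10_insHEL replicate 1, 2 or 3 and 4, 5 and 3 without NOD_insHEL replicate 1, 2 or 3, and 1 without both doubted libraries. Nars, Mars and Aars held throughout the single leave-outs. Nars, which charges the asparagine tRNA, was at 187, 290 and 348 CPM in B10_insHEL and 156, 156 and 121 CPM in NOD_insHEL (log2 difference -0.92 ± 0.19 SE, adjusted p = 0.00572), while Mars and Aars differed by -0.76 ± 0.15 log2 units (adjusted p = 0.00163) and -0.71 ± 0.15 log2 units (adjusted p = 0.00296).

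Promoter sequence was examined because genes of this response are known to carry a C/EBP-ATF response element. The letters TGATGNAA, on either strand within the 250 bases before the start site, were found in 3.45% of 32851 mouse promoters (RefSeq, GRCm38.p6). They were found in 8 of the 28 stress response genes with a promoter in that table and in 3 of 12 tRNA synthetases. The lists count a gene once where any of its promoters holds the match. Their shares are thus in another unit than the share over all promoters. Among the called members of these lists the match was present in Asns, Nupr1, Vldlr, Aars and Tars. Called genes outside the lists were not looked up for it. The list members Atf3, Chac1, Fgf21, Pycr1, Slc7a11 and Gars also hold it and were not called. Whether the match goes with a call was not tested. The called holders in these lists are given here with the match in capitals and 20 bases to either side where the window allows. Each sequence reads 5′ to 3′ on the strand of its gene. TTGCATCA is the same element read on the opposite strand.
Asns (chr6:7693210-7693252, minus strand): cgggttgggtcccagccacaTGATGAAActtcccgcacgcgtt
Nupr1 (chr7:126625553-126625600, minus strand): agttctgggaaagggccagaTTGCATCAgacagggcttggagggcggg
Vldlr (chr19:27216800-27216847, plus strand): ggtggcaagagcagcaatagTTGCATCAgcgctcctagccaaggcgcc
Aars (chr8:111033710-111033757, plus strand): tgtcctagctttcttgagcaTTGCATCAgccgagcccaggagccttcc
Tars (chr15:11399659-11399693, minus strand): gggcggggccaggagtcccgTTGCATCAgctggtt
Vldlr, a lipoprotein receptor, and Tars, the threonine tRNA synthetase, were lower, at -0.56 ± 0.15 log2 units (adjusted p = 0.0163) and -0.52 ± 0.14 log2 units (adjusted p = 0.0216). The Vldlr call was lost without B10_insHEL replicate 3 or NOD_insHEL replicate 1 or 2 (highest adjusted p 0.0961). The Tars call was lost without B10_insHEL replicate 2 or 3 or NOD_insHEL replicate 1 or 3 (highest adjusted p 0.0882). A match describes letters in the window and is no measurement of binding.

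**Figure D2:**
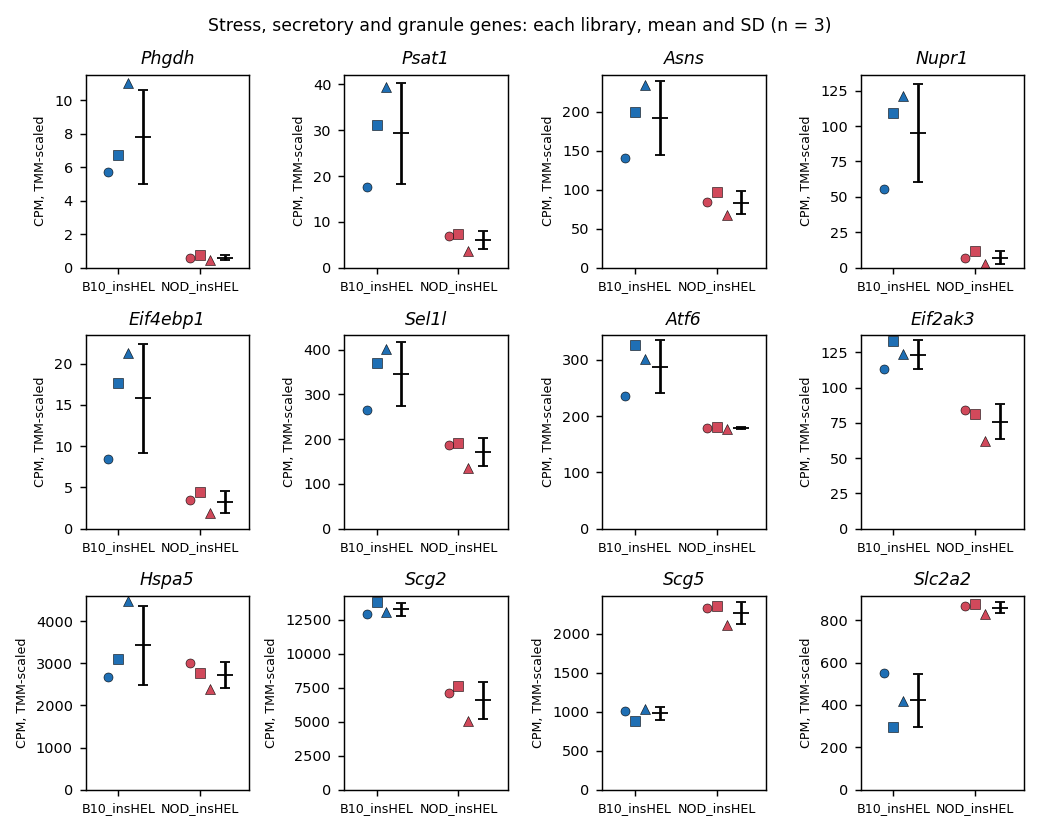
Level of 12 genes of the stress response, the secretory pathway and the granule, as TMM-scaled CPM on axes that start at 0. Each point is 1 library, and the black dash and bar give the mean and SD of 3 libraries per group. The groups do not overlap in 11 of the 12 genes, while Hspa5 overlaps. Those 11 are called genes, which seldom overlap: 1759 of the 1850 called genes did not, against 27.0% of all genes tested.

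Most ER chaperones had a lower level in NOD_insHEL, and few passed the test singly. Of 17 measured chaperones 16 had a negative difference (median -0.33), 3 were called lower and none higher (17.6% called, against 12.1% of all genes). The number called was 6, 2 and 1 without B10_insHEL replicate 1, 2 or 3 and 2, 3 and 1 without NOD_insHEL replicate 1, 2 or 3, and no chaperone was called with both doubted libraries out. Hsp90b1, the ER form of Hsp90, was called in each single leave-out, at 2040, 2800 and 2840 CPM in B10_insHEL and 1860, 1930 and 1640 CPM in NOD_insHEL (log2 difference -0.50 ± 0.12 SE, adjusted p = 0.00848). Dnajc3, a co-chaperone that restrains Perk, was at 662, 991 and 1120 CPM in B10_insHEL and 696, 675 and 516 CPM in NOD_insHEL (log2 difference -0.55 ± 0.16 SE, adjusted p = 0.0284). The Dnajc3 call was lost without B10_insHEL replicate 2 or 3 or NOD_insHEL replicate 2 or 3 (highest adjusted p 0.129). Sil1, the exchange factor of BiP, differed by -0.46 ± 0.14 log2 units (adjusted p = 0.0337). The Sil1 call was lost without B10_insHEL replicate 1 or 3 or NOD_insHEL replicate 1 or 3 (highest adjusted p 0.132). Hspa5, which encodes BiP, the most used index of ER load, was at 2680, 3110 and 4490 CPM in B10_insHEL and 3000, 2770 and 2380 CPM in NOD_insHEL and did not pass the test (log2 difference -0.34 ± 0.15 SE, adjusted p = 0.178). B10_insHEL replicate 3 was the highest library for both Hspa5 and Dnajc3. Without it the median of the list was -0.19.

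The ER stress element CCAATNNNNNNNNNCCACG was present in 0.113% of all promoters and in 6 of the 13 chaperones with a promoter in the table (Calr, Canx, Creld2, Dnajc3, Hsp90b1 and Hspa5). The chaperones are again counted by gene, while the share over all is by promoter. The element is shown for the 2 called chaperones that hold it and for Hspa5, in capitals. Hsp90b1 carries 2 matches, of which the one shown reads on the opposite strand.
Hspa5 (chr2:34772005-34772063, plus strand): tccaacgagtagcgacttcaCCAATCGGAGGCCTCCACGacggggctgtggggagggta
Hsp90b1 (chr10:86705513-86705571, minus strand): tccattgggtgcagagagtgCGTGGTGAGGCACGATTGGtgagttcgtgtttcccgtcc
Dnajc3 (chr14:118937807-118937865, plus strand): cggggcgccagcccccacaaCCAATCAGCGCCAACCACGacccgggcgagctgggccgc

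Some of the UPR sensors were lower. Of 18 sensors and transducers 4 were called lower, against 6.5% of all genes, and none higher (median -0.31, and -0.13 without B10_insHEL replicate 3). The count was 9, 3 and 4 without B10_insHEL replicate 1, 2 or 3 and 3, 3 and 2 without NOD_insHEL replicate 1, 2 or 3, and 1 with both doubted libraries out. Atf6, the sensor that is cleaved in the Golgi to a transcription factor, was at 235, 327 and 302 CPM in B10_insHEL and 179, 181 and 177 CPM in NOD_insHEL (log2 difference -0.69 ± 0.13 SE, adjusted p = 0.00121). Eif2ak3, the Perk kinase, was at 113, 133 and 124 CPM in B10_insHEL and 84.2, 81.5 and 62 CPM in NOD_insHEL (log2 difference -0.68 ± 0.16 SE, adjusted p = 0.00722). Neither group overlapped the other in these genes. Creb3l2, an ER-bound relative of Atf6, differed by -0.53 ± 0.13 log2 units (adjusted p = 0.00903). The Creb3l2 call was lost without NOD_insHEL replicate 3 (adjusted p = 0.0549). Ern1, named after its value was seen, differed by -0.66 ± 0.18 log2 units (adjusted p = 0.0246), and its call was lost without B10_insHEL replicate 2 or NOD_insHEL replicate 1, 2 or 3 (highest adjusted p 0.101). Xbp1, the target of Ire1, was at 368, 429 and 459 CPM in B10_insHEL and 399, 367 and 423 CPM in NOD_insHEL and did not pass (log2 difference -0.08 ± 0.10 SE, adjusted p = 0.685).

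Degradation and folding enzymes moved in both directions. Sel1l, the scaffold of the ER degradation complex, was at 266, 371 and 402 CPM in B10_insHEL and 186, 192 and 135 CPM in NOD_insHEL (log2 difference -1.004 ± 0.15 SE, adjusted p = 0.000166), with no overlap. Vcp, the ATPase that pulls substrates from the ER membrane, was at 91.3, 80.4 and 114 CPM in B10_insHEL and 17.9, 17.3 and 8.92 CPM in NOD_insHEL (log2 difference -2.58 ± 0.20 SE, adjusted p = 6.8e-08). Edem2, a mannosidase that starts the trimming of glycoproteins for disposal, was higher, at 203, 181 and 222 CPM in B10_insHEL and 335, 272 and 278 CPM in NOD_insHEL (log2 difference 0.55 ± 0.12 SE, adjusted p = 0.00444). Erlec1, a lectin of the same pathway, was higher by 0.37 ± 0.12 log2 units (adjusted p = 0.0417). The Erlec1 call was lost without B10_insHEL replicate 1 or 2 or NOD_insHEL replicate 1 or 2 (highest adjusted p 0.224). These 4 were the calls among 25 degradation genes (16.0%, against 12.1% of all genes), 2 in each direction, and the lower count was 6, 4 and 2 without B10_insHEL replicate 1, 2 or 3 and 3, 2 and 2 without NOD_insHEL replicate 1, 2 or 3. Among 20 disulfide isomerases and oxidases, Qsox1, a sulfhydryl oxidase, was lower, at 123 ± 20.8 CPM in B10_insHEL and 53.8 ± 6.96 CPM in NOD_insHEL (mean ± SD, n = 3), with no overlap. Its difference was -1.18 ± 0.13 log2 units (adjusted p = 1.61e-06). Txndc5, an isomerase, was lower, at -0.41 ± 0.11 log2 units (adjusted p = 0.02). The Txndc5 call was lost without B10_insHEL replicate 3 or NOD_insHEL replicate 2 or 3 (highest adjusted p 0.12). Prdx4, the ER peroxiredoxin, was higher by 0.58 ± 0.14 log2 units (adjusted p = 0.00845). The Prdx4 call was lost without NOD_insHEL replicate 1 (adjusted p = 0.0522).

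Genes of entry into the ER and of transport out of it were examined next. Of 35 genes of translocation and N-glycosylation 7 were lower and 1 higher (22.9% called, against 12.1% of all genes; median -0.23, and -0.08 without B10_insHEL replicate 3), and the lower count was 11, 4 and 2 without B10_insHEL replicate 1, 2 or 3 and 7, 4 and 2 without NOD_insHEL replicate 1, 2 or 3. Srp9, part of the signal recognition particle, was at 63.9, 54.9 and 77.5 CPM in B10_insHEL and 37.3, 30.9 and 34.7 CPM in NOD_insHEL (log2 difference -0.93 ± 0.14 SE, adjusted p = 7.69e-05). Srprb, a subunit of its receptor, was at 72.1, 68.5 and 99.9 CPM in B10_insHEL and 54.4, 49.9 and 41.3 CPM in NOD_insHEL (log2 difference -0.70 ± 0.17 SE, adjusted p = 0.00937). Uggt1, which checks glycoprotein folding, was lower, at -0.46 ± 0.13 log2 units (adjusted p = 0.0207). The Uggt1 call was lost without B10_insHEL replicate 2 or 3 or NOD_insHEL replicate 3 (highest adjusted p 0.105). Sec61a2, a form of the channel subunit, was higher by 0.52 ± 0.14 log2 units (adjusted p = 0.0162). The Sec61a2 call was lost without NOD_insHEL replicate 3 (adjusted p = 0.0616). Of 41 genes of COPI and COPII vesicle transport 4 were lower and none higher (9.76% called), near the 6.5% of all genes that were lower, and the count was 7 without B10_insHEL replicate 1. Copa, the large COPI coat subunit, was at 807, 911 and 955 CPM in B10_insHEL and 604, 552 and 520 CPM in NOD_insHEL (log2 difference -0.67 ± 0.10 SE, adjusted p = 0.000127). Mcfd2 and Tmed2, cargo receptors between ER and Golgi, differed by -0.67 ± 0.15 log2 units (adjusted p = 0.00435) and -0.62 ± 0.14 log2 units (adjusted p = 0.00423).

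**Figure D3:**
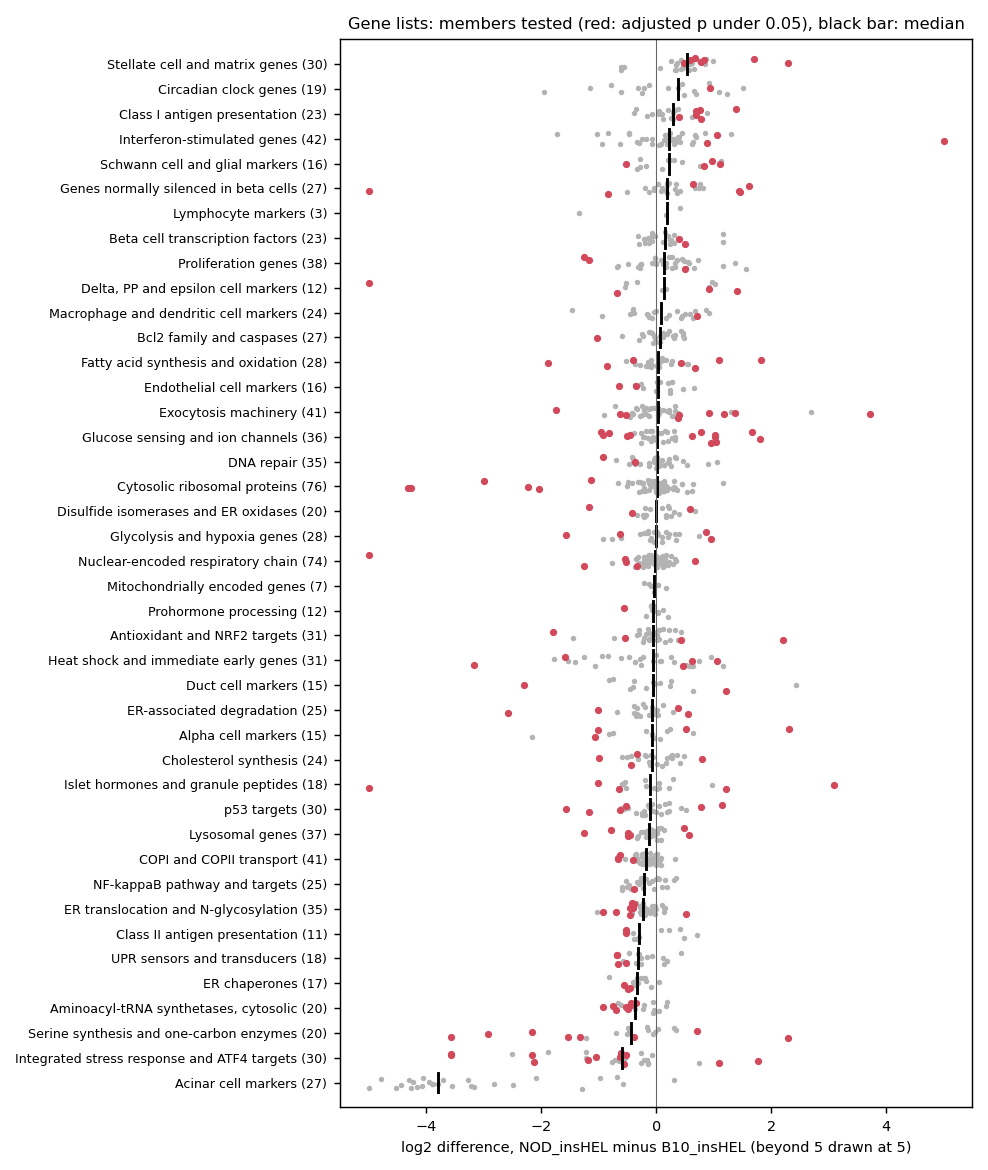
Log2 difference (NOD_insHEL minus B10_insHEL) of every tested member of the 42 gene lists, ordered by median. Red points passed the test, grey points did not, black bars are list medians and the number tested is in brackets. The integrated stress response, serine enzymes and tRNA synthetases lie lowest after the acinar markers, whose median of -3.79 rests on B10_insHEL replicate 2.

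Islet hormones and granule proteins showed a mixed pattern with high-abundance genes in it. Insulin did not pass the test for either gene, at log2 difference 0.30 ± 0.14 SE, adjusted p = 0.186 for Ins1 and log2 difference 0.22 ± 0.13 SE, adjusted p = 0.322 for Ins2. Ins1 lay at 75600, 46900 and 68700 CPM in B10_insHEL and at 76100, 76100 and 83200 CPM in NOD_insHEL, with B10_insHEL replicate 2, the acinar-rich library, lowest. Iapp, islet amyloid polypeptide, which is co-secreted with insulin, was at 35100, 36000 and 38000 CPM in B10_insHEL and 24300, 24000 and 21500 CPM in NOD_insHEL (log2 difference -0.64 ± 0.12 SE, adjusted p = 0.000667). Scg2, a granin that yields secretoneurin, was at 12900, 13800 and 13100 CPM in B10_insHEL and 7080, 7610 and 5030 CPM in NOD_insHEL (log2 difference -1.01 ± 0.13 SE, adjusted p = 1.9e-05). Scg5, the chaperone 7B2 of prohormone convertase 2, was at 1010, 888 and 1040 CPM in B10_insHEL and 2340, 2360 and 2110 CPM in NOD_insHEL (log2 difference 1.21 ± 0.11 SE, adjusted p = 1.33e-07). The groups did not overlap for any of these 3 genes, and all 3 were among the 6 most abundant called genes, beside Hsp90b1, Peg3 and the imprinted RNA Meg3. Meg3 was higher by 0.40 ± 0.13 log2 units (adjusted p = 0.0426). The Meg3 call was lost without B10_insHEL replicate 1, 2 or 3 or NOD_insHEL replicate 3 (highest adjusted p 0.245). Npy, neuropeptide Y, was higher, at 6.34, 7.91 and 4.33 CPM in B10_insHEL and 37.3, 26.6 and 114 CPM in NOD_insHEL (log2 difference 3.10 ± 0.63 SE, adjusted p = 0.0144), with NOD_insHEL replicate 3 far above the rest, and its call was lost without B10_insHEL replicate 3 (adjusted p = 0.0514). Of the other hormones, Gcg (log2 difference -0.04, adjusted p = 0.978), Sst (0.97, 0.109) and Ppy (-0.54, 0.588) did not pass. For Sst the groups still did not overlap, at 1790, 1260 and 1940 CPM in B10_insHEL and 3630, 2540 and 3600 CPM in NOD_insHEL.

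Of 12 prohormone processing genes only Furin was called (8.33%, against 12.1% of all genes). It was lower, at 65.3, 68.8 and 57.6 CPM in B10_insHEL and 43.9, 47.6 and 35.7 CPM in NOD_insHEL (log2 difference -0.57 ± 0.12 SE, adjusted p = 0.0026). Its product is a convertase of the Golgi. Few beta cell transcription factors were called: 2 of 23 (8.7%, against 12.1% of all genes), both higher, with a count of 1 without B10_insHEL replicate 1 and without NOD_insHEL replicates 2 and 3. Myt1, a zinc finger factor of endocrine cells, was at 72.8, 72.7 and 66.2 CPM in B10_insHEL and 93.3, 89.7 and 119 CPM in NOD_insHEL (log2 difference 0.49 ± 0.11 SE, adjusted p = 0.00472). Neurod1 was higher by 0.39 ± 0.12 log2 units (adjusted p = 0.0307). The Neurod1 call was lost without B10_insHEL replicate 1 or NOD_insHEL replicate 2 or 3 (highest adjusted p 0.151). Pdx1 did not pass, at 255, 198 and 209 CPM in B10_insHEL and 215, 259 and 246 CPM in NOD_insHEL (log2 difference 0.12 ± 0.12 SE, adjusted p = 0.57). Mafa, which drives insulin transcription in mature beta cells, was at 63.7, 23.7 and 64.7 CPM in B10_insHEL and 111, 113 and 113 CPM in NOD_insHEL. The groups did not overlap, but the gene did not pass (log2 difference 1.16 ± 0.37 SE, adjusted p = 0.0816). Without the acinar-rich B10_insHEL replicate 2, its lowest library, the difference was 0.81 log2 units (adjusted p = 0.0242).

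Of 36 genes of glucose sensing and excitability 8 were higher and 5 lower (36.1% called, against 12.1% of all genes). The lower count was 3, 3 and 6 without B10_insHEL replicate 1, 2 or 3 and 5, 2 and 4 without NOD_insHEL replicate 1, 2 or 3. Slc2a2, the glucose transporter of mouse beta cells, was at 550, 298 and 417 CPM in B10_insHEL and 870, 877 and 830 CPM in NOD_insHEL (log2 difference 1.03 ± 0.16 SE, adjusted p = 0.00015). In islets without insHEL the same strain contrast was 0.06 log2 units (adjusted p = 0.796), and the test of the difference between both contrasts did not pass (adjusted p = 0.132). Trpm5, a calcium-activated cation channel, was at 91.9, 35.9 and 58.7 CPM in B10_insHEL and 193, 231 and 227 CPM in NOD_insHEL (log2 difference 1.80 ± 0.28 SE, adjusted p = 0.00176). For both genes the acinar-rich B10_insHEL replicate 2 was the lowest library. Without it the differences were 0.83 log2 units (adjusted p = 0.000147) for Slc2a2 and 1.52 log2 units (adjusted p = 8.6e-06) for Trpm5, which were both named after their values were seen. Cacna1a, the P/Q-type calcium channel, was at 55.9, 61.1 and 53.4 CPM in B10_insHEL and 109, 116 and 125 CPM in NOD_insHEL (log2 difference 1.03 ± 0.11 SE, adjusted p = 9.76e-07). Sodium channel subunits differed in direction: Scn9a (0.95 ± 0.13 log2 units (adjusted p = 3.46e-05)) was higher, whereas Scn3a (-0.82 ± 0.16 log2 units (adjusted p = 0.00124)) was lower. Casr, the calcium-sensing receptor, was at 95.4, 110 and 75 CPM in B10_insHEL and 57.5, 54.1 and 29.6 CPM in NOD_insHEL (log2 difference -0.93 ± 0.18 SE, adjusted p = 0.00269). Kcnk16, a leak potassium channel of islets, was lower, at -0.50 ± 0.12 log2 units (adjusted p = 0.00953). The Kcnk16 call was lost without NOD_insHEL replicate 2 (adjusted p = 0.0646).

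Exocytosis genes were called in both directions. Mlph, melanophilin, which links Rab27 granules to myosin, was at 1.72, 1.3 and 1.34 CPM in B10_insHEL and 19.9, 14.8 and 24.9 CPM in NOD_insHEL (log2 difference 3.72 ± 0.24 SE, adjusted p = 6.84e-10). Sytl4, granuphilin, another Rab27 effector, which docks insulin granules, was at 337, 286 and 336 CPM in B10_insHEL and 537, 667 and 615 CPM in NOD_insHEL (log2 difference 0.92 ± 0.11 SE, adjusted p = 4.36e-06). Syt9, a calcium sensor of exocytosis, was lower, at 26.3, 26.2 and 24.4 CPM in B10_insHEL and 7.38, 7.26 and 9.39 CPM in NOD_insHEL (log2 difference -1.74 ± 0.19 SE, adjusted p = 1.27e-06). Cplx2, a complexin that clamps the fusion machinery, and Ptprn2, the granule protein phogrin and a diabetes autoantigen, were lower, at -0.63 ± 0.13 log2 units (adjusted p = 0.00172) and -0.52 ± 0.12 log2 units (adjusted p = 0.00463). Vamp3, a vesicle SNARE, was higher by 0.38 ± 0.10 log2 units (adjusted p = 0.0124). The Vamp3 call was lost without B10_insHEL replicate 2 or NOD_insHEL replicate 2 (highest adjusted p 0.0536). In all 6 of 41 exocytosis genes were higher and 3 lower (over all genes 5.55% were higher and 6.5% lower). The higher count was 7, 4 and 5 without B10_insHEL replicate 1, 2 or 3 and 5, 5 and 3 without NOD_insHEL replicate 1, 2 or 3, and the lower count was 7 without B10_insHEL replicate 1.

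Alpha and delta cell markers were called in both directions. Dpp4, the peptidase that inactivates incretins, was at 22.8, 27.1 and 26.6 CPM in B10_insHEL and 123, 146 and 110 CPM in NOD_insHEL (log2 difference 2.31 ± 0.14 SE, adjusted p = 3.36e-10). Peg3, an imprinted zinc finger gene, was at 2210, 2400 and 2300 CPM in B10_insHEL and 3190, 2960 and 3720 CPM in NOD_insHEL (log2 difference 0.51 ± 0.12 SE, adjusted p = 0.00825). Gc, the vitamin D binding protein, was lower, at 198, 225 and 165 CPM in B10_insHEL and 106, 96.3 and 74.2 CPM in NOD_insHEL (log2 difference -1.07 ± 0.13 SE, adjusted p = 6.22e-06). Sphkap, an anchor for protein kinase A, was lower, at -1.02 ± 0.15 log2 units (adjusted p = 0.000116). Summed alpha cell markers ran from 27100 to 35400 CPM in B10_insHEL and from 25800 to 34600 CPM in NOD_insHEL. Lepr, the leptin receptor, was higher by 1.41 ± 0.28 log2 units (adjusted p = 0.00214). Hhex, the delta cell factor, was higher by 0.91 ± 0.22 log2 units (adjusted p = 0.00723). The Hhex call was lost without NOD_insHEL replicate 1 (adjusted p = 0.112). Etv1 was lower, at -0.69 ± 0.18 log2 units (adjusted p = 0.0162). The Etv1 call was lost without B10_insHEL replicate 2 (adjusted p = 0.0585).

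**Figure D4:**
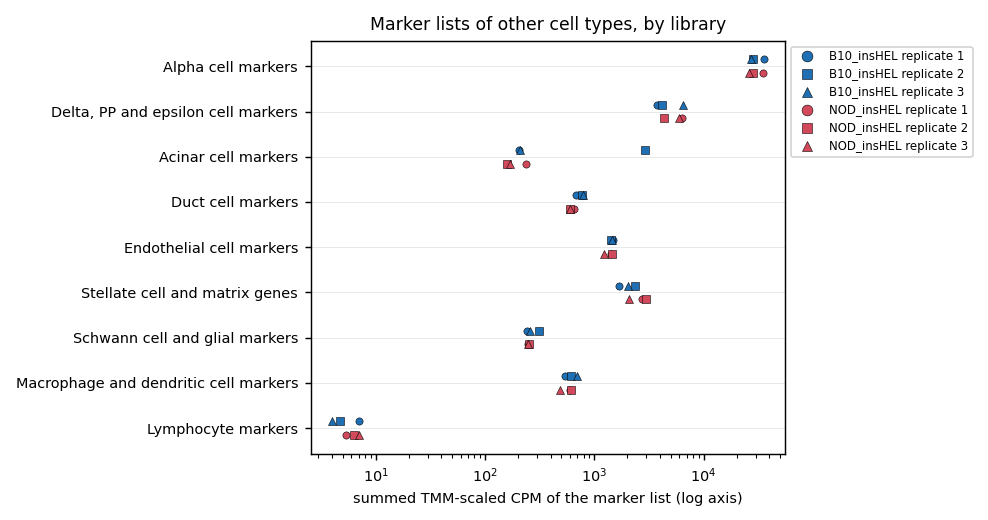
Summed TMM-scaled CPM of marker lists of other cell types in each library, on a log axis. Blue symbols are B10_insHEL and red symbols NOD_insHEL libraries, with the marker shape giving the replicate. The acinar sum of B10_insHEL replicate 2 (2940 CPM) lies above the 160 to 238 CPM of the other 5 libraries.

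Non-endocrine cells were compared through their markers. None of 27 acinar markers was called by edgeR, although their median was -3.79, 12 were lower at an unadjusted p under 0.05, and DESeq2 called 10 lower. Prss2, a trypsinogen, was at 4.41, 213 and 1.55 CPM in B10_insHEL and 7.29, 2.64 and 6.1 CPM in NOD_insHEL, and Reg2, a regenerating protein, at 1.72, 85.1 and 1.03 CPM in B10_insHEL and 0.192, 0.528 and 0.47 CPM in NOD_insHEL, with B10_insHEL replicate 2 far above the rest for both (log2 differences -3.79 and -6.38). Without it the Prss2 difference was 0.849 and that of Reg2 -1.941 (adjusted p = 0.0604), and for Reg2 the other B10_insHEL libraries still lay above every NOD_insHEL library. These Reg2 levels are low, and in NOD_insHEL replicate 3 a gene with 0 counts could be present at up to 1.41 CPM. Their order is therefore uncertain. Without B10_insHEL replicate 2 the list's median was 0.41 and 3 markers were called higher. Of 30 matrix and stellate cell genes 7 were called higher, against 5.55% of all genes, none was called lower, and 27 had a difference above 0 (median 0.54). That count was 4, 7 and 5 without B10_insHEL replicate 1, 2 or 3 and 4, 3 and 7 without NOD_insHEL replicate 1, 2 or 3. Their summed level was 1700, 2360 and 2040 CPM in B10_insHEL and 2720, 2990 and 2070 CPM in NOD_insHEL, ranges that overlap through NOD_insHEL replicate 3. Col6a3, a chain of collagen VI, was at 12.9, 20 and 16.8 CPM in B10_insHEL and 59.3, 55.7 and 46 CPM in NOD_insHEL (log2 difference 1.71 ± 0.20 SE, adjusted p = 7.72e-06). Sparc, a matrix glycoprotein, was at 220, 251 and 261 CPM in B10_insHEL and 438, 486 and 370 CPM in NOD_insHEL (log2 difference 0.83 ± 0.14 SE, adjusted p = 0.00036). Timp1, a protease inhibitor, was higher by 2.29 ± 0.56 log2 units (adjusted p = 0.00892). The Timp1 call was lost without NOD_insHEL replicate 2 (adjusted p = 0.0835). Col1a1, the main chain of collagen I, did not pass (log2 difference 0.99 ± 0.46 SE, adjusted p = 0.217).

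Duct, endothelial, glial and immune markers showed single differences. Spp1, osteopontin, was at 82.4, 128 and 92.7 CPM in B10_insHEL and 21.6, 24.9 and 10.3 CPM in NOD_insHEL (log2 difference -2.30 ± 0.30 SE, adjusted p = 0.000529). Onecut2, a duct and progenitor factor, was higher by 1.21 ± 0.28 log2 units (adjusted p = 0.00661). Of 15 duct markers these were the 2 calls (13.3%, against 12.1% of all genes), with 3 lower without B10_insHEL replicate 2 and 2 lower without B10_insHEL replicate 1. The summed duct markers lay at 678 to 792 CPM in B10_insHEL and 598 to 650 CPM in NOD_insHEL, while Krt19, a defining keratin, was at most 3.83 CPM and did not pass (log2 difference 0.64 ± 0.89 SE, adjusted p = 0.715). Emcn, the endothelial endomucin, was at 142, 115 and 152 CPM in B10_insHEL and 84.6, 97.6 and 76.5 CPM in NOD_insHEL (log2 difference -0.65 ± 0.14 SE, adjusted p = 0.00274). Pecam1 did not pass (log2 difference 0.20 ± 0.14 SE, adjusted p = 0.371). Of 16 endothelial markers 12.5% were called, near the 12.1% of all genes. Flt1, a receptor of vascular growth factor, was the other of 2 lower calls among 16 endothelial markers (-0.36 ± 0.11 log2 units (adjusted p = 0.0358)), lost without B10_insHEL replicate 2 or NOD_insHEL replicate 1, 2 or 3 (highest adjusted p 0.125). Summed endothelial markers were 1410 to 1470 CPM in B10_insHEL and 1220 to 1450 CPM in NOD_insHEL. Schwann cell markers had 3 of 16 higher (among them Kcna1 and Ngfr at 0.97 and 1.12 log2 units) and Cdh2 lower (log2 difference -0.53). The Kcna1 call was lost without B10_insHEL replicate 1 or NOD_insHEL replicate 1, 2 or 3 (highest adjusted p 0.144) and Ngfr without B10_insHEL replicate 1, 2 or 3 or NOD_insHEL replicate 2 or 3 (highest adjusted p 0.384). Cdh2 was lost without B10_insHEL replicate 2 or NOD_insHEL replicate 1, 2 or 3 (highest adjusted p 0.197). Of 24 macrophage markers Laptm5 alone was called (4.17%, against 12.1% of all genes). It was higher by 0.71 ± 0.20 log2 units (adjusted p = 0.021), a call lost without B10_insHEL replicate 2 or NOD_insHEL replicate 2 (highest adjusted p 0.157). Ptprc did not pass (log2 difference 0.42 ± 0.26 SE, adjusted p = 0.324). Lymphocyte markers were near absent: 3 of 24 passed the filter on low counts, Cd3e, Cd3d, Cd3g, Ms4a1 and Trbc2 had no counts, and the list summed to at most 7.09 CPM.

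Antigen presentation was examined because both groups carry the same MHC k haplotype. Of 23 class I genes 6 were higher, against 5.55% of all genes, and none lower (median 0.29), and the count was 4, 5 and 5 without B10_insHEL replicate 1, 2 or 3 and 6, 2 and 3 without NOD_insHEL replicate 1, 2 or 3. Psmb8, an immunoproteasome subunit, was at 17.5, 16.1 and 19.5 CPM in B10_insHEL and 27.5, 25.9 and 34.7 CPM in NOD_insHEL (log2 difference 0.70 ± 0.15 SE, adjusted p = 0.00335). H2-Q4, a class I gene with close paralogs among which reads can be split, was higher by 0.69 ± 0.14 log2 units (adjusted p = 0.00154). Tapbp, tapasin, was higher by 0.40 ± 0.10 log2 units (adjusted p = 0.013). The Tapbp call was lost without NOD_insHEL replicate 2 (adjusted p = 0.0647). H2-K1 did not pass, at 5020, 3560 and 5330 CPM in B10_insHEL and 5030, 4830 and 4460 CPM in NOD_insHEL (log2 difference 0.04 ± 0.14 SE, adjusted p = 0.881), and its sign turned without B10_insHEL replicate 2 (-0.12). In the mice without insHEL the H2-K1 strain difference was 0.607 log2 units (adjusted p = 0.00251). With the level of acinar markers as a covariate it was 0.19 log2 units there (adjusted p = 0.625). Whether reads of the transgene were counted in H2-K1 was not tested. Among 11 class II genes (18.2% called, against 12.1% of all genes) Cd74 and H2-Eb1 were lower, at -0.52 ± 0.15 log2 units (adjusted p = 0.026) and -0.53 ± 0.16 log2 units (adjusted p = 0.0325). The Cd74 call was lost without B10_insHEL replicate 3 or NOD_insHEL replicate 1 (highest adjusted p 0.142), and the H2-Eb1 call without B10_insHEL replicate 1 or 3 or NOD_insHEL replicate 1 or 2 (highest adjusted p 0.202). Within the H2 complex on chromosome 17 (33996017 to 37274484, GRCm38), 9 of 114 genes were called, 7.89% against 12.1% of all genes, and 3.51% without NOD_insHEL replicate 3. Within 10 Mb of the Rag genes on chromosome 2 the share was 10.0% (9 of 90).

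Interferon-stimulated genes had 3 of 42 called, all higher (7.14% called, against 12.1% of all genes). Ifi202b, a cytosolic DNA-binding protein of the Ifi200 family, had 0 counts in all B10_insHEL libraries and 2.4, 2.11 and 3.29 CPM in NOD_insHEL, at least 24.2-fold higher (log2 difference 7.82 ± 1.01 SE, adjusted p = 4.38e-05). Gbp2 and Gbp3, guanylate-binding proteins, were higher by 0.88 ± 0.26 log2 units (adjusted p = 0.0321) and 1.06 ± 0.33 log2 units (adjusted p = 0.044), with NOD_insHEL replicate 3 the highest library for both. The Gbp2 call was lost without B10_insHEL replicate 1 or 3 or NOD_insHEL replicate 3 (highest adjusted p 0.127) and the Gbp3 call without B10_insHEL replicate 1, 2 or 3 or NOD_insHEL replicate 2 or 3 (highest adjusted p 0.127). Nfkb1 was the single call of 25 genes of the NF-kappaB list (4.0%, against 12.1% of all genes). It was lower, at -0.39 ± 0.12 log2 units (adjusted p = 0.0316). The Nfkb1 call was lost without B10_insHEL replicate 2 or NOD_insHEL replicate 1, 2 or 3 (highest adjusted p 0.115).

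Growth and damage genes differed at named points. Ccnd1, cyclin D1, was at 242, 277 and 340 CPM in B10_insHEL and 119, 130 and 110 CPM in NOD_insHEL (log2 difference -1.25 ± 0.13 SE, adjusted p = 5.36e-07). Cdkn1a, the p21 inhibitor of the cell cycle and a p53 target, was at 43.8, 49.3 and 47.6 CPM in B10_insHEL and 23.9, 22.6 and 12.2 CPM in NOD_insHEL (log2 difference -1.17 ± 0.20 SE, adjusted p = 0.000763). The related stress genes Gadd45a and Gadd45b ran in opposite directions, Gadd45a higher by 1.15 ± 0.16 log2 units (adjusted p = 4.31e-05) and Gadd45b lower, at -1.56 ± 0.32 log2 units (adjusted p = 0.00261). Sesn2, which restrains mTOR under stress, was at 47.1, 49.3 and 57.3 CPM in B10_insHEL and 33.4, 29.8 and 38.5 CPM in NOD_insHEL (log2 difference -0.62 ± 0.13 SE, adjusted p = 0.00245). Of 30 p53 targets 4 were lower and 2 higher (20.0% called, against 12.1% of all genes). Sesn2, among the lower, also counts in the integrated stress response list. The second higher gene was Perp (0.79 ± 0.24 log2 units (adjusted p = 0.0354)), lost without B10_insHEL replicate 1 or 3 or NOD_insHEL replicate 1 or 2 (highest adjusted p 0.279). Xrcc6, which encodes the DNA end-binding protein Ku70, was at 39.5, 36.4 and 46.2 CPM in B10_insHEL and 23.7, 20.6 and 18.8 CPM in NOD_insHEL (log2 difference -0.92 ± 0.14 SE, adjusted p = 8.22e-05). Parp1 was lower, at -0.37 ± 0.12 log2 units (adjusted p = 0.0454). The Parp1 call was lost without B10_insHEL replicate 1, 2 or 3 or NOD_insHEL replicate 2 or 3 (highest adjusted p 0.165). These were the 2 calls among 35 DNA repair genes (5.71%, against 12.1% of all genes). Of 38 proliferation genes 1 was higher, Rrm1, and 2 lower (7.89% called, against 12.1% of all genes). Rrm1 differed by 0.51 ± 0.14 log2 units (adjusted p = 0.0233), a call lost without B10_insHEL replicate 3 or NOD_insHEL replicate 1 or 2 (highest adjusted p 0.178). Bmf was the single call of 27 Bcl2 family genes and caspases (3.7%, against 12.1% of all genes). It was lower, at -1.03 ± 0.26 log2 units (adjusted p = 0.0115). The Bmf call was lost without B10_insHEL replicate 3 or NOD_insHEL replicate 2 (highest adjusted p 0.0676).

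Lipid genes were called in both directions. Scd1 and Scd2, which introduce the double bond into stearate, were both higher. Scd2 was at 221, 181 and 271 CPM in B10_insHEL and 467, 515 and 457 CPM in NOD_insHEL (log2 difference 1.10 ± 0.14 SE, adjusted p = 9e-06) and Scd1 at 3.22, 9.92 and 8.15 CPM in B10_insHEL and 23.3, 25.2 and 29.6 CPM in NOD_insHEL (log2 difference 1.82 ± 0.27 SE, adjusted p = 0.000209). Me1, malic enzyme, was higher by 0.67 ± 0.14 log2 units (adjusted p = 0.00286). Acadl, an enzyme of fatty acid oxidation, was at 39.6, 45.1 and 44.4 CPM in B10_insHEL and 25.7, 20.2 and 26.8 CPM in NOD_insHEL (log2 difference -0.85 ± 0.14 SE, adjusted p = 0.000258). Ppargc1a, a coactivator of mitochondrial genes, was lower, at -1.88 ± 0.41 log2 units (adjusted p = 0.00391). Elovl5 was lower, at -0.40 ± 0.12 log2 units (adjusted p = 0.0305). The Elovl5 call was lost without B10_insHEL replicate 1 or 3 or NOD_insHEL replicate 1 or 2 (highest adjusted p 0.126). In all 4 of 28 genes of this list were higher and 3 lower. In cholesterol synthesis Cyp51 was higher, at 69.6, 73.1 and 77.2 CPM in B10_insHEL and 124, 143 and 115 CPM in NOD_insHEL (log2 difference 0.80 ± 0.12 SE, adjusted p = 0.000108). Sc5d, a later enzyme, was lower, at 39.4, 41.2 and 35.8 CPM in B10_insHEL and 21.4, 19.8 and 15 CPM in NOD_insHEL (log2 difference -1.0 ± 0.15 SE, adjusted p = 7.61e-05). Insig1 was lower, at -0.44 ± 0.11 log2 units (adjusted p = 0.013). The Insig1 call was lost without B10_insHEL replicate 1 or NOD_insHEL replicate 1 (highest adjusted p 0.071). Msmo1 was lower, at -0.34 ± 0.10 log2 units (adjusted p = 0.0267). The Msmo1 call was lost without B10_insHEL replicate 1 or NOD_insHEL replicate 1 (highest adjusted p 0.129). Of 24 cholesterol synthesis genes 16.7% were called, against 12.1% of all genes.

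Few mitochondrial and ribosomal genes were called. The shares were 8.11% of nuclear-encoded respiratory chain genes and 7.89% of cytosolic ribosomal protein genes, against 12.1% of all genes. None of the 7 tested genes encoded in the mitochondrial genome was called by edgeR or DESeq2, and none had an unadjusted p under 0.05. Of 74 nuclear-encoded respiratory chain genes 5 were lower and 1 higher, among them Ndufa12 at 16.8, 16.5 and 22.9 CPM in B10_insHEL and 7.38, 7.65 and 9.39 CPM in NOD_insHEL (log2 difference -1.25 ± 0.21 SE, adjusted p = 0.000266) and Sdhc at 93.5, 74.5 and 109 CPM in B10_insHEL and 63.6, 61.6 and 67.6 CPM in NOD_insHEL (log2 difference -0.53 ± 0.12 SE, adjusted p = 0.00679). Of 76 cytosolic ribosomal protein genes 6 were lower, including Rpl30 at 61.2, 60.4 and 61.4 CPM in B10_insHEL and 15.9, 14.8 and 13.1 CPM in NOD_insHEL (log2 difference -2.03 ± 0.12 SE, adjusted p = 2.79e-10), and 8 of its copies are listed as pseudogenes in the file. The chaperones Hspa8 (-3.17 ± 0.45 log2 units (adjusted p = 0.0019)) and Hspe1 (-1.58 ± 0.23 log2 units (adjusted p = 0.000105)) were the 2 lower calls of the heat shock list, a count that was 7 without B10_insHEL replicate 1. Ftl1 (-0.54 ± 0.13 log2 units (adjusted p = 0.0078)) and Eno1 (-1.56 ± 0.24 log2 units (adjusted p = 0.000112)) were also lower. All 4 have near-identical copies in the genome, which makes their values uncertain. Eno2, the neuronal enolase, was higher, at 49.5, 36.6 and 31.1 CPM in B10_insHEL and 67.3, 73.6 and 90.6 CPM in NOD_insHEL (log2 difference 0.96 ± 0.14 SE, adjusted p = 8.88e-05). Hydrolases of the lysosome were lower for Glb1, beta-galactosidase, at 41.7, 33.1 and 38.7 CPM in B10_insHEL and 17.6, 12.7 and 18.3 CPM in NOD_insHEL (log2 difference -1.25 ± 0.15 SE, adjusted p = 7.19e-06), and for Man2b1 (-0.78 ± 0.13 log2 units (adjusted p = 0.000375)) and Hexa (-0.49 ± 0.12 log2 units (adjusted p = 0.00717)). Lipa, the acid lipase, was higher by 0.57 ± 0.14 log2 units (adjusted p = 0.00757), and Ctsz, a cathepsin, by 0.49 ± 0.12 log2 units (adjusted p = 0.00971). The Ctsz call was lost without NOD_insHEL replicate 1 (adjusted p = 0.0556). In all 5 of 37 lysosomal genes were lower and 2 higher (18.9% called, against 12.1% of all genes), and the lower count was 3 without NOD_insHEL replicate 2.

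Among antioxidant and glycolytic genes Ftl1, Eno1 and Eno2, given above, kept their calls in each leave-out. The other calls of these lists, and 3 immediate early genes, each lost theirs in at least 1. Mt1, a metallothionein that binds zinc and copper, was at 66.7, 86.4 and 65.5 CPM in B10_insHEL and 15.5, 27.2 and 20.7 CPM in NOD_insHEL (log2 difference -1.79 ± 0.48 SE, adjusted p = 0.0456). The Mt1 call was lost without any 1 of the 6 libraries (highest adjusted p 0.156). Nfe2l2, the regulator Nrf2, was higher by 0.43 ± 0.12 log2 units (adjusted p = 0.0179). The Nfe2l2 call was lost without B10_insHEL replicate 3 or NOD_insHEL replicate 2 (highest adjusted p 0.125). Gsta4, a glutathione transferase, was higher by 2.20 ± 0.59 log2 units (adjusted p = 0.0164). The Gsta4 call was lost without B10_insHEL replicate 3 or NOD_insHEL replicate 1 (highest adjusted p 0.364). The immediate early genes Jund, Dusp1 and Ier3 were higher. Their differences were 0.46 ± 0.12 log2 units (adjusted p = 0.0145), 0.62 ± 0.18 log2 units (adjusted p = 0.0229) and 1.06 ± 0.31 log2 units (adjusted p = 0.0271). The Jund call was lost without B10_insHEL replicate 2 or NOD_insHEL replicate 3 (highest adjusted p 0.0766). The Dusp1 call was lost without B10_insHEL replicate 3 or NOD_insHEL replicate 1 or 3 (highest adjusted p 0.108), and that of Ier3 without B10_insHEL replicate 2 or 3 or NOD_insHEL replicate 1 or 3 (highest adjusted p 0.243). Pfkp, a phosphofructokinase, was lower, at -0.62 ± 0.17 log2 units (adjusted p = 0.0212). The Pfkp call was lost without B10_insHEL replicate 3 or NOD_insHEL replicate 1 or 3 (highest adjusted p 0.0791). Gapdh was counted at only 2.15 to 5.14 CPM, and its call (0.87 ± 0.28 log2 units (adjusted p = 0.0455)) was lost without any 1 of the 6 libraries (highest adjusted p 0.166). It has 2 annotated pseudogene copies that can share its reads, so its values are uncertain.

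Genes that mature beta cells normally silence, and clock genes, gave a few more calls. Igfbp4, a binding protein of insulin-like growth factors, was at 13, 13.7 and 14.2 CPM in B10_insHEL and 39.8, 40.6 and 28.2 CPM in NOD_insHEL (log2 difference 1.45 ± 0.21 SE, adjusted p = 7.92e-05). Cxcl12, a chemokine, was at 13.9, 11 and 7.84 CPM in B10_insHEL and 42.5, 29.5 and 25.4 CPM in NOD_insHEL (log2 difference 1.62 ± 0.31 SE, adjusted p = 0.00493). Acot7, a thioesterase, was higher by 1.46 ± 0.32 log2 units (adjusted p = 0.0038). Including Aldh1a3 and Lmo4 (-0.84 ± 0.22 log2 units (adjusted p = 0.0129), lost without NOD_insHEL replicate 1 (adjusted p = 0.0882)), 4 of 27 such genes were higher and 2 lower (22.2% called, against 12.1% of all genes). Bhlhe41, a repressor of the clock, was at 45.7, 42 and 32 CPM in B10_insHEL and 70.8, 70 and 92 CPM in NOD_insHEL (log2 difference 0.94 ± 0.17 SE, adjusted p = 0.000891). It was the single call of 19 clock genes (5.26%, against 12.1% of all genes). Of these 19 genes 3 were called higher and 3 lower without B10_insHEL replicate 2, and 2 were called higher without B10_insHEL replicate 3.

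**Figure D5:**
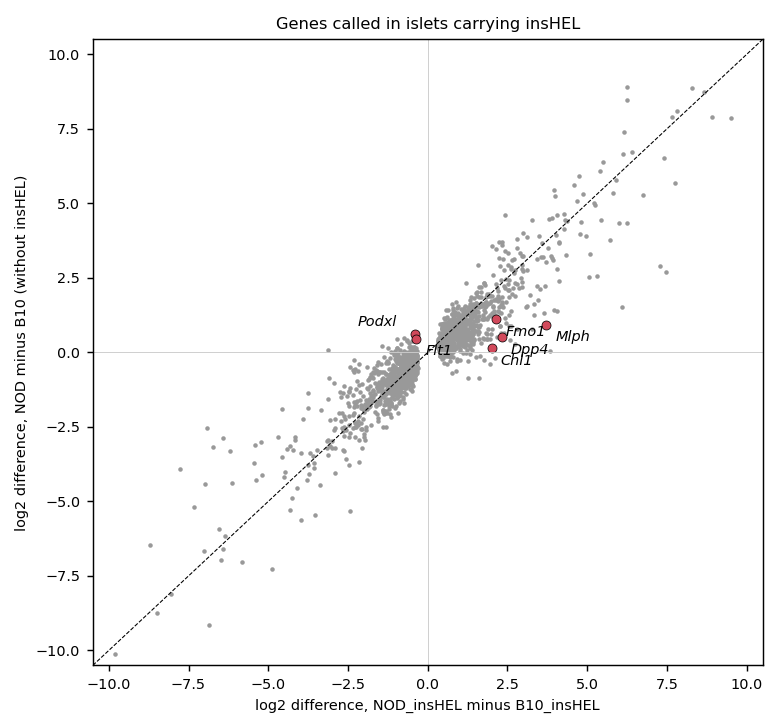
Strain difference of the 1850 called genes in islets carrying insHEL (horizontal, log2) and in separate mice without insHEL (vertical, log2), with the dashed line marking equal values. The 6 named red points are called genes for which the 2 strain differences themselves differed by the interaction test. Of the points 95.6% have the same sign on both axes, which does not by itself place them near the dashed line.

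The strain difference was read a second time in the 6 libraries without insHEL, which share no mouse with the 6 above. These libraries also entered the estimate of the spread behind the 1850 calls, so the second reading is not fully independent of them. Of the 1850 called genes 1768 (95.6%) had the same sign there and 1343 (72.6%) were also called in the same direction, while 6 were called in the opposite one. In that comparison 28.4% of all genes were called. Acinar RNA moved with strain there: the mean log2(CPM + 1) of the acinar markers was 5.58 to 5.91 in the B10 libraries and 2.29 to 2.77 in the NOD libraries. With this score as a covariate 7.16% of all genes were called without insHEL, 1692 of the 1850 genes (91.5%) had the same sign and 610 (33.0%) were called in the same direction. Aldh1a3, Nupr1, Asns and Phgdh were among them, at adjusted p = 0.0204, 0.00557, 0.00705 and 1.26e-05. The interaction test, which asks whether the strain difference with insHEL differs from that without, called 9 genes (0.0586%), of which 6 were called here. That number was 162 without B10_insHEL replicate 2, 3 without B10_insHEL replicate 3 or NOD_insHEL replicate 1 or 2, and 6 without either of the other two. The sample numbers of the B10 libraries without insHEL lie apart from those of all other libraries, and the labels do not say whether they were handled separately.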

How the data were processed

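RNA of picked islets was sequenced as stranded mRNA libraries, 1 per mouse. The authors deposited raw read counts per Ensembl gene. GRCm38 is the build, and cutadapt, TopHat2 2.0.8b, HTSeq and DESeq the tools, that the submitters' processing notes name. The strand setting of the counting is not given in the sources used here, and whether NOD alleles map less well to GRCm38 was not tested. Symbols and coordinates came from GENCODE on GRCm38, and 95.0% of 38561 identifiers matched.

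In R 4.3.3, edgeR 4.0.16 fitted 4 group means to 12 libraries after filterByExpr and TMM scaling. The robust quasi-likelihood test was two-sided with Benjamini-Hochberg adjustment over 15352 genes (threshold 0.05). Alternatives were DESeq2 1.42.0, other size factors, no filter, covariates, thinned counts and leaving out libraries. Folds against 0 counts were set against 3 counts, and intervals are exact at 95% and cover counting error only.

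Named genes are the 12 highest and 12 lowest called protein-coding genes with at least 5 CPM in the higher group, no overlap and calls kept in all 6 leave-outs; up to 3 called genes per list and direction; fixed anchors; the 6 most abundant called genes; and genes called by the interaction test. Predicted and unnamed genes (233 of the calls) were left out of the first set, and a few genes that the rule names are not reported here. The members and lists were chosen with earlier results of these data known.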

Additional observations from a re-analysis of the deposited data

Results flagged for a closer look

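For 6 genes called between NOD_insHEL and B10_insHEL, the strain difference with insHEL itself differed from the strain difference without it, by the interaction test of edgeR over all genes. Mlph and Dpp4 kept the interaction call whichever of the 6 insHEL libraries was left out (highest adjusted p 0.000515 and 0.000497). Chl1 lost it in 3 of the 6 leave-outs, without B10_insHEL replicate 3 or NOD_insHEL replicate 1 or 3 (highest adjusted p 0.106). Podxl, Fmo1 and Flt1 kept it only without B10_insHEL replicate 2 and lost it in the other 5 (highest adjusted p 0.0872, 0.0919 and 0.179). All 6 passed when the acinar score was added to the model. The sample numbers of the B10 libraries without insHEL lie apart from the rest, and the labels do not say whether those libraries were handled separately.

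Mlph, melanophilin, had the largest interaction (2.81 ± 0.30 SE, adjusted p = 5.54e-05), with group means of 1.45 and 19.9 CPM for B10_insHEL and NOD_insHEL, against 14.9 and 27.9 CPM for B10 and NOD. B10_insHEL is the group that stands low. Dpp4 followed (1.81 ± 0.19 SE, adjusted p = 5.54e-05), with means of 25.5 and 126 CPM for B10_insHEL and NOD_insHEL, against 65.6 and 92.6 CPM for B10 and NOD, so that B10_insHEL was lowest and NOD_insHEL highest. Chl1, a neural cell adhesion molecule, was at 9.82 and 40.2 CPM for B10_insHEL and NOD_insHEL, against 18.6 and 20.4 CPM for B10 and NOD (1.87 ± 0.30 SE, adjusted p = 0.0309), and Fmo1, a flavin monooxygenase, at 11.3 and 50.5 CPM for B10_insHEL and NOD_insHEL, against 18.9 and 40.8 CPM for B10 and NOD (1.04 ± 0.18 SE, adjusted p = 0.0309). For the endothelial receptor Flt1 the means were 280 and 218 CPM for B10_insHEL and NOD_insHEL, against 217 and 299 CPM for B10 and NOD (-0.82 ± 0.15 SE, adjusted p = 0.049). Podxl, podocalyxin, a sialomucin of podocytes and vessel walls, was at 206 and 155 CPM for B10_insHEL and NOD_insHEL, against 153 and 237 CPM for B10 and NOD (-1.03 ± 0.18 SE, adjusted p = 0.0309). In these last 2 genes the strain difference had opposite signs with and without insHEL. With insHEL, the strain call for Flt1 (-0.36 ± 0.11 log2 units (adjusted p = 0.0358)) was lost without B10_insHEL replicate 2 or NOD_insHEL replicate 1, 2 or 3 (highest adjusted p 0.125), and that for Podxl (-0.39 ± 0.13 log2 units (adjusted p = 0.0484)) without B10_insHEL replicate 1 or 3 or NOD_insHEL replicate 1, 2 or 3 (highest adjusted p 0.195).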

How the results depend on the processing

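The number of genes called between NOD_insHEL and B10_insHEL was 1850, and leaving out each library in turn gave 1344 to 1978. It was 1847 with RLE size factors, 2083 with DESeq2 and 2323 with no filter on low counts. It fell to 1151 when every library was thinned to the shallowest and to 1197 when the 6 insHEL libraries were fitted alone. The replicate numbers did not pair the libraries: same-numbered libraries correlated at 0.025, 0.065 and 0.031 in their deviations from the group means, and with the replicate number as a block 1857 genes were called. The interaction calls, 9 in the model as reported, varied widely: leaving out single libraries gave 3 to 162 (162 without B10_insHEL replicate 2), DESeq2 gave 78, no filter 161, the acinar score as a covariate 43, islet number as a covariate 5, and both doubted libraries out 283. The cause was not tested. The share called in the H2 complex was 7.89%, and the leave-outs gave 3.51% to 7.02%, with 3.51% also when both doubted libraries were out. Signs turned only for genes that had not passed the test. Over the leave-outs Ddit3 ran from -0.612 to 0.01 (0.01 without B10_insHEL replicate 3), Gcg from -0.206 to 0.109, Krt19 from -1.276 to 1.237, Rag1 from -0.002 to 0.333, Prss2 from -4.368 to 0.849 and H2-K1 from -0.117 to 0.155. The turned values without B10_insHEL replicate 2 were 0.849 for Prss2 and -0.117 for H2-K1. With the acinar covariate they were 0.484 and -0.068, and with both doubted libraries out 0.818 and -0.07, beside 0.012 for Gcg. Of 165 called genes tracked in the text, 103 kept their call under every alternative in which they had a value, and none changed sign. Only 156 of them had a value with thinned counts and 163 with the 6 insHEL libraries alone. NOD_insHEL replicate 3, at 2212062 counts, limits low genes most.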

Other observations

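Several abundant genes outside the lists differed by more than 2-fold with small errors; they were chosen after their values were seen, from those with the lowest adjusted p in edgeR. Dio1, the deiodinase that activates thyroid hormone, was at 114 ± 13.4 CPM in B10_insHEL and 13.3 ± 2.31 CPM in NOD_insHEL (mean ± SD, n = 3) (log2 difference -3.16 ± 0.18 SE, adjusted p = 6.61e-10). Col6a6, a collagen VI chain, was lower, at 62.1, 76.2 and 61.2 CPM in B10_insHEL and 4.7, 6.07 and 2.35 CPM in NOD_insHEL (log2 difference -3.77 ± 0.20 SE, adjusted p = 4.14e-11), the reverse of Col6a3, which was higher, at 59.3, 55.7 and 46 CPM in NOD_insHEL. Defb1, a beta-defensin, was at 108, 139 and 89.7 CPM in B10_insHEL and 19.5, 26.5 and 22.1 CPM in NOD_insHEL (log2 difference -2.31 ± 0.16 SE, adjusted p = 3.18e-09). Prom1, a membrane protein of epithelial protrusions, and Gucy2c, the guanylate cyclase receptor for guanylin, were lower, at -2.04 ± 0.16 log2 units (adjusted p = 3.53e-08) and -1.64 ± 0.16 log2 units (adjusted p = 2.78e-07). Rab6b, a Golgi GTPase of neurons, was at 72.1, 81.4 and 63.2 CPM in B10_insHEL and 14.1, 10.7 and 15.5 CPM in NOD_insHEL (log2 difference -2.47 ± 0.15 SE, adjusted p = 2.79e-10). Rtkn2 was higher, at 5.37, 4.7 and 2.79 CPM in B10_insHEL and 53.7, 68.2 and 55.4 CPM in NOD_insHEL (log2 difference 3.79 ± 0.19 SE, adjusted p = 1.98e-11). Each of these genes differed in the same direction and passed the test in the separate mice without insHEL, also with the acinar score as a covariate.

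Calls were unevenly spread over the genome. By chromosome the share called ran from 8.61% (chromosome 17) to 15.2% (chromosome 6), against 12.1% over all genes. On chromosome 13, 61 of the 78 called genes were lower in NOD_insHEL, against 998 of the 1850 called over all genes. Within its stretch from 24 to 26 Mb (GRCm38), 9 of 14 tested genes were called, 8 of them lower, the highest share of any 2 Mb window with at least 6 called genes. They include Dcdc2a, a doublecortin domain gene (36.3, 49.1 and 43.8 CPM in B10_insHEL and 10.4, 11.2 and 12.7 CPM in NOD_insHEL, log2 difference -1.95 ± 0.17 SE, adjusted p = 1.08e-07), and Ripor2 (-2.06 ± 0.38 log2 units (adjusted p = 0.000823)). The window was picked by its share after the calls were made, so no test is attached to it.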
